A study of Mus musculus with 22 samples.

Results

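The 8 genes described here, Txnip, Cxcr4, Spp1, Cd9, Cd63, Siglecf, Gngt2 and Sema4d, are associated with aged neutrophils and with neutrophils that have settled in a tissue. They were chosen by name, with earlier results of these data known, from the 23091 genes of the tables, and all 8 were found there. Their levels were read in gated cells, that is, barcodes with at least 500 transcripts, at least 5 transcripts of S100a8 and S100a9 together and at most 2 of the complement genes C1qa, C1qb and C1qc. The gate held 688 of the 1383 cells with at least 500 transcripts. The barcodes numbered 4224 in all.

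The sort took CD45+H2kb+CD11b+Ly6G+ cells of the terminal ileum. Tissue was taken on day 21, counted from the allogeneic transplantation. Recipients were BALB/c mice aged 7 to 9 weeks, and donors were female C57BL/6N mice aged 7 to 10 weeks. All recipients had 2 irradiations of 5 Gy, at least 4 hours apart, and 5000000 donor bone marrow cells. Recipients in the aGVHD group (acute graft-versus-host disease) were given 400000 donor T cells as well, and the control group none. H2kb is the class I molecule of the donor strain, so the sort takes donor-derived cells. CEL-Seq2, a plate-based method, counted the 3' ends of transcripts with molecular identifiers in 10 control and 12 aGVHD libraries.

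Neutrophils change with time after leaving the marrow. Cxcr4, the receptor for the chemokine Cxcl12, holds neutrophils in the marrow and returns to the surface of aged cells. Txnip is an arrestin-like protein that binds thioredoxin and limits glucose uptake. Spp1 (osteopontin) is a secreted ligand of Cd44 and of integrins. Cd9 and Cd63 are tetraspanins, membrane proteins that organise other receptors, and Cd63 lies in the membranes of lysosomes and primary granules. Siglecf is an inhibitory receptor for sialic acids, best known from eosinophils and also found on neutrophils of tumours and inflamed tissue. Gngt2 is a gamma subunit of heterotrimeric G proteins, and Sema4d (CD100) is a semaphorin that binds plexin B receptors and Cd72.

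Library totals ran from 45607 to 233719 transcripts in control and from 215945 to 360054 in aGVHD. Barcodes are numbered alike in every library, and 0 cells had the same values in 2 libraries. Gated cells numbered 124 in control and 564 in aGVHD libraries. Libraries with at least 5 gated cells entered the comparisons, 7 control libraries with 10 to 26 gated cells and 12 aGVHD libraries with 27 to 74. Control replicates 5, 9 and 10 held 3, 2 and 3 gated cells and were left out. The titles form a dated set and a set carrying G1, and the fit between groups held this set as a covariate. The labels do not say which mouse a library came from. The p-values therefore measure only how far libraries spread, and that spread may be technical. Of 15 neutrophil marker genes in the tables, all 15 were detected in the gate. The list includes S100a8 and S100a9, which define the gate, so its detection and level were fixed in part by the gate. The summed level of the 15 genes ran from 19426 to 37680 CPM in control and from 28690 to 108756 CPM in aGVHD libraries. Here CPM, the level of a gene per library, is its transcripts per 1000000 transcripts of named genes. Epithelial markers had a median of 2259 CPM in control and 269 CPM in aGVHD libraries, with Fabp1 at 0, and B or plasma cell markers 897 and 382 CPM. Whether these markers had a part in the results was not tested.

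Txnip and Cxcr4 were found in most gated cells, Cd9 in 57.4% of them, and Spp1 in few. Txnip had 1233 transcripts in 456 cells (66.3%), Cxcr4 1243 in 433 cells (62.9%) and Cd9 855 in 395 cells. Sema4d was found in 195 cells (28.3%), Gngt2 in 167 (24.3%), Cd63 in 145 (21.1%), Siglecf in 80 (11.6%) and Spp1 in 27 (3.92%). Among cells with the gene, the mean was 2.87 transcripts for Cxcr4 and 1.41 for Siglecf. The Spp1 signal rested on few cells, since 3 cells carried 41.0% of its 61 transcripts and 1 cell of aGVHD replicate 4 carried 13. For Cxcr4 the 3 highest cells held 3.22%. Macrophage and monocyte markers stood at 2062 CPM in the 27 cells with Spp1 and 1447 CPM in gated cells without it, pooled over libraries. Their part in the Spp1 level was not tested.

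None of the 8 genes passed a test between aGVHD and control gated cells, and in all 8 the libraries of the groups overlapped. Txnip, the thioredoxin-binding protein, ran in control libraries from 59.1 CPM in replicate 6 to 1412 CPM in replicate 2, with a median of 582. In aGVHD libraries it ran from 481 CPM in replicate 4 to 1747 CPM in replicate 8, with a median of 924. Of the aGVHD libraries, 10 of 12 lay above the control mean of 702 ± 467 (SD, n = 7), and the aGVHD mean was 954 ± 320 (SD, n = 12). The log2 fold change was 0.44 (95% interval -0.22 to 1.11, limma adjusted p = 0.544), and 0.12 without control replicate 6, which held 1 Txnip transcript.

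Cxcr4 ran from 346 to 1569 CPM in control libraries with a median of 1241, and from 317 to 1816 CPM in aGVHD libraries with a median of 988. Control replicates 1 and 4 were low (346 and 359 CPM), as were aGVHD replicates 6 and 7 (317 and 372), while aGVHD replicates 8 and 11 were the highest (1816 and 1707). The group means were 1011 ± 501 (SD, n = 7) and 978 ± 473 (SD, n = 12), with a log2 fold change of -0.20 (95% interval -0.91 to 0.51, limma adjusted p = 0.823). In aGVHD the libraries with the lowest Cxcr4 also held most of the immature cells described further on.

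The tetraspanins had fold changes near 0. Cd9 ran from 202 to 941 CPM in control libraries, median 565, and from 334 to 1280 CPM in aGVHD libraries, median 642. The highest Cd9 was in aGVHD replicate 8, the library that was also highest in Txnip and Cxcr4. Its log2 fold change was 0.08 (95% interval -0.40 to 0.56, limma adjusted p = 0.900). Cd63 ran from 17.1 CPM in control replicate 3 to 307 CPM in control replicate 8, median 224, and from 77.6 to 295 CPM in aGVHD libraries, median 164. Its log2 fold change of 0.01 had a 95% interval of -0.91 to 0.92 (limma adjusted p = 0.9998). Without control replicate 3, which held 1 Cd63 transcript, it was -0.63.

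Gngt2 ran from 28.9 to 342 CPM in control libraries, median 157, and from 56.3 to 349 CPM in aGVHD libraries, median 227 (log2 fold change -0.17, 95% interval -1.04 to 0.69, limma adjusted p = 0.891). Sema4d ran from 118 to 538 CPM in control libraries, median 255, and from 106 to 473 CPM in aGVHD libraries, median 226 (log2 fold change -0.40, 95% interval -1.03 to 0.23, limma adjusted p = 0.562). The intervals of both genes include a level in aGVHD that is lower by 1 on the log2 scale.

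Siglecf and Spp1 were too low for the test. Siglecf ran from 0 to 231 CPM in control libraries, median 79.7, and from 0 to 189 CPM in aGVHD libraries, median 71.0, with 1 library of each group at 0. Spp1 ran from 0 to 134 CPM in control libraries, median 19.9, and from 0 to 109 CPM in aGVHD libraries, median 20.9, with 3 control and 4 aGVHD libraries at 0. In both genes the highest library was a control library.

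**Figure D1:**
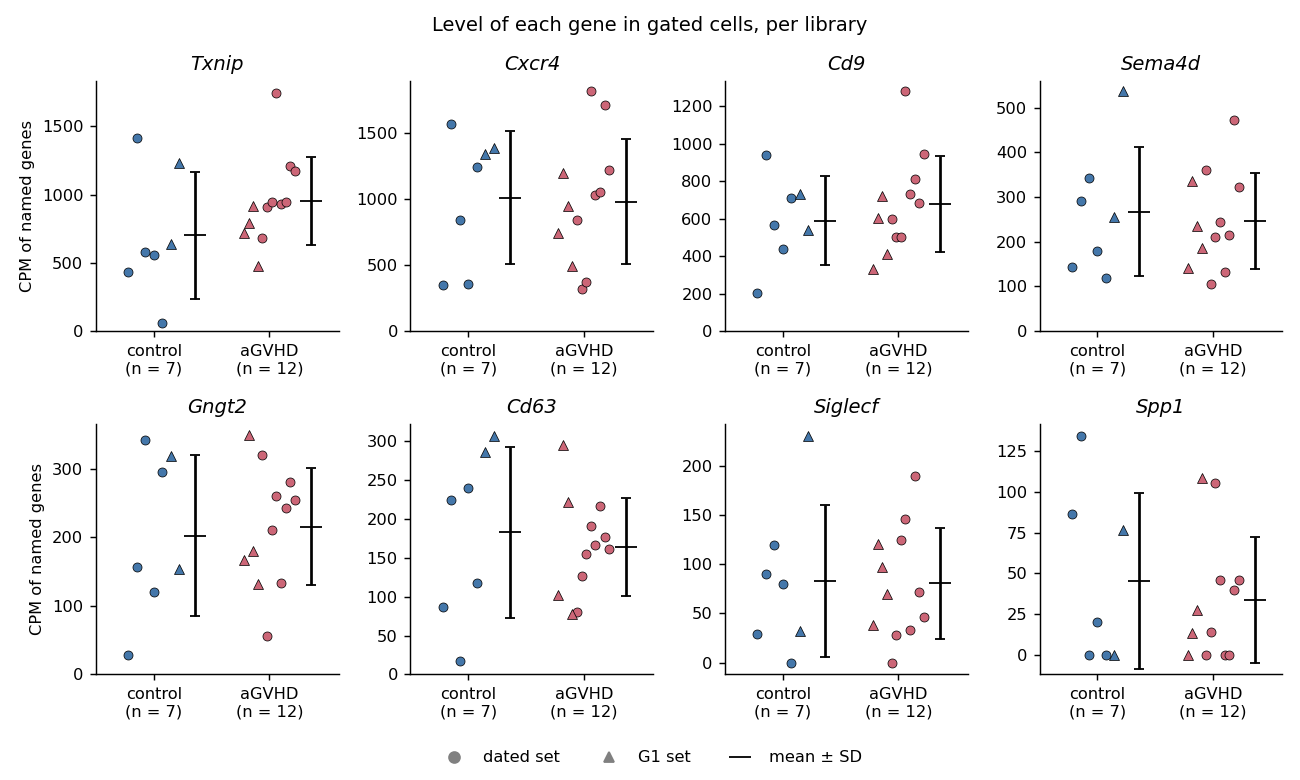
Level of each of the 8 genes in the gated cells of each library, in CPM of named genes, for 7 control and 12 aGVHD libraries; circles are the dated set, triangles the G1 set, and bars the mean ± SD. For every gene the groups overlap, and the highest Cxcr4 values are those of aGVHD replicates 8 (1816) and 11 (1707).

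Over all genes the same fit called 0 of 875 (percent called 0) at an adjusted p of 0.05, with 120 at an unadjusted p under 0.05 and 0 by limma with an intensity trend. Of the 8 genes, 6 passed the low-count filter, 0 were called and 0 had an unadjusted p under 0.05. Their median log2 fold change was -0.08 against -0.03 over all genes tested. Sums were simulated with these library sizes, 200 changed genes and a dispersion (extra spread between libraries) of 0.2 for every gene. Of 943 genes tested there, 48% of those changed by 1 on the log2 scale were called. So were 100% of those changed by 2, and 11 unchanged genes. In the data the control SD of the 6 genes ran from 40.1% (Cd9) to 66.5% (Txnip) of the mean. The simulation was not set to the spread of each gene.

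A test of whether the group difference itself varied between the title sets (the interaction) called 0 of 875 genes by limma (percent called 0, with 61 at an unadjusted p under 0.05). All 6 genes tested had a lower fold change in the G1 set. The interaction was -1.02 for Txnip, -0.80 for Cxcr4 and -1.47 for Cd63 on the log2 scale (limma adjusted p = 0.722, 0.777 and 0.708). Within the dated set Txnip had a log2 fold change of 0.62 (95% interval -0.15 to 1.38), and within the G1 set -0.23 (-1.02 to 0.56). For Cxcr4 these were 0.04 (-0.89 to 0.96) and -0.67 (-1.43 to 0.09).

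**Figure D2:**
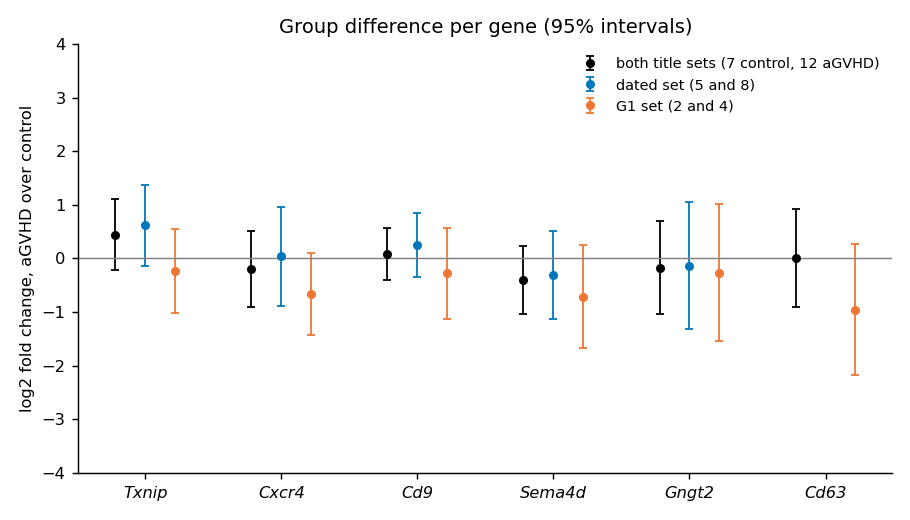
Log2 fold change of aGVHD over control in gated cells for the 6 genes that passed the low-count filter, with 95% intervals, over both title sets and within each set; Cd63 was below the filter in the dated set. Every interval includes 0, and the G1 values lie below those over both sets.

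Detection was compared at an equal total. Each gated cell was thinned to 500 transcripts, named or not, and the share of cells with the gene was averaged over libraries. Cxcr4 was found in 28.4% ± 8.51 (SD, n = 7) of control and 25.9% ± 13.1 (SD, n = 12) of aGVHD cells, and Txnip in 17.8% ± 16.9 and 23.9% ± 8.90. Without control replicate 2 the Txnip difference moved from 6.13 to 12.1 points (exact permutation p = 0.00943, adjusted p = 0.0754), and without control replicate 6 to 3.17. Cd63 was found in 2.96% and 5.34%, and Siglecf in 2.81% and 2.11%. By exact two-sided permutation within title sets 0 of 8 genes passed, with adjusted p from 0.876 to 0.925. The smallest unadjusted p was 0.182, for Cd63, where the smallest p the design allows is 5.18e-05. Named genes made up 29.9% to 71.4% of gated transcripts in control and 27.1% to 73.1% in aGVHD libraries, so the named depth still differed. With 250 named transcripts drawn instead, the differences of Txnip (-1.81 points), Cd63 (-2.72) and Gngt2 (-6.28) turned. Without thinning Cxcr4 was found in 77.2% of control and 60.0% of aGVHD cells (exact permutation p = 0.0490, adjusted p = 0.392). The median total per gated cell, averaged over libraries, was 2819 transcripts for control and 2451 for aGVHD.

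Genes that work with the 8 were read from lists, also chosen with earlier results known, and no gene of any list was called between groups (0 of 875 genes by limma, 120 at an unadjusted p under 0.05). Of the Cxcr4 axis and neutrophil ageing list, 14 of 22 genes were tested, 10 had a positive fold change and the median was 0.10. It includes the chemokine Cxcl2 (12437 ± 4344 CPM in control, 12835 ± 6117 in aGVHD) and the adhesion receptor Cd44 (1662 ± 528 and 1907 ± 717). Of the Txnip partners, 5 of 16 were tested with a median of -0.18. Klf6 stood at 1086 ± 555 and 1495 ± 423 CPM, and thioredoxin Txn1 at 1338 ± 877 and 1149 ± 255. Among Spp1 receptors only Cd44 and the integrin subunit Itga4 were tested, and Itga4 stood at 268 ± 156 and 145 ± 75.3 CPM (log2 fold change -0.99, limma adjusted p = 0.274).

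Of tetraspanins and their partners, 3 of 16 were tested with a median of -0.06, among them Cd53 (1227 ± 514 and 1475 ± 334 CPM) and Lamp1 (361 ± 83.7 and 322 ± 107). In the Siglec family, 2 of 8 were tested, both with positive fold changes. Ptpn6, a phosphatase recruited by Siglec receptors, stood at 456 ± 243 and 530 ± 121 CPM, and Cd33 at 261 ± 101 and 468 ± 110 (log2 fold change 0.71, limma adjusted p = 0.240). Of the G protein subunits, 6 of 16 were tested, 4 positive, with a median of 0.07. Gnai2 stood at 1169 ± 274 and 1308 ± 209 CPM and Gna13 at 227 ± 71.1 and 338 ± 119. Of semaphorins and plexins, 1 of 15 was tested, Sema4a (230 ± 131 and 368 ± 142 CPM), while Plxnc1 was near 60 CPM in both groups (60.5 and 60.2).

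Of 20 genes known from SiglecF-high tumour and tissue neutrophils, 13 were tested, 8 positive, with a median of 0.07. The chemokine Ccl3 stood at 1539 ± 942 and 1444 ± 986 CPM, and Cd274 (PD-L1) at 981 ± 372 and 1021 ± 353. Of the late maturation genes, 15 of 16 were tested, 12 positive, with a median of 0.42, against -0.03 over all genes. Il1b stood at 12256 ± 4358 and 11316 ± 5003 CPM and Retnlg at 877 ± 736 and 3465 ± 3294. Of 14 granule and immature genes, 2 passed the filter, Lcn2 (log2 fold change 2.07) and Cybb (0.56), with a median of 1.32. Lcn2 stood at 215 ± 186 and 1437 ± 1757 CPM (limma adjusted p = 0.401). Mmp8, which was below the filter and not tested, stood at 84.7 ± 52.7 and 840 ± 1039 CPM.

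Cxcr4 was rarer in gated cells that held granule gene RNA. Neutrophil precursors and young neutrophils make secondary granule proteins, and 24 gated cells held at least 5 transcripts of the granule genes Ngp, Ltf and Camp. All 24 were in aGVHD libraries and 0 in control libraries. Cxcr4 was found in 2 of these 24 cells (8.33%, exact 95% interval 1.03% to 27.0%) and in 431 of the other 664 gated cells (64.9%, 61.2% to 68.5%). Gngt2 was found in 1 of 24 and in 166 of 664 cells (25.0%), Siglecf in 1 and in 79 (11.9%), and Sema4d in 4 and in 191 (28.8%). Txnip, Cd9 and Cd63 were found in 16 (66.7%), 17 (70.8%) and 9 (37.5%) of the 24 cells, and in 66.3%, 56.9% and 20.5% of the others. The granule-rich cells were the deeper, with a median of 3969 transcripts against 2475. Thinned to 500 transcripts, Cxcr4 was found in 1 of 24 (4.17%, 0.105% to 21.1%) against 26.7% (23.3% to 30.2%), and Gngt2 and Sema4d in 0 of 24 (up to 14.2%) against 7.08% and 7.23%. Txnip was then found in 16.7% against 23.5%, Cd9 in 20.8% against 18.8%, Cd63 in 8.33% against 5.12% and Siglecf in 4.17% against 2.41%. The Siglecf order thus turned with depth, and only the pooled Cxcr4 intervals do not overlap. The 664 other cells come from all libraries, while aGVHD replicates 6 and 7 held 8 and 10 of the granule-rich cells. At 500 transcripts, Cxcr4 was found in 9 of the other gated cells of replicate 6 and not in 47. In replicate 7 it was found in 10 and not in 54. Over all gated cells of these replicates, not thinned, it was found in 39.1% and 47.3%. The intervals cover counting error only, cells of 1 library are not independent, and no test was made.

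As levels, Cxcr4 stood at 51.7 CPM in granule-rich and 1000 CPM in other gated cells, and Gngt2 at 12.9 and 217 CPM. Txnip stood at 582 and 959 CPM, Cd9 at 504 and 659, and Cd63 at 181 and 161. Most granule-rich cells came from 2 libraries that held at least 5 of them, and in these Cxcr4 and Gngt2 were at 0 in the granule-rich cells. The other gated cells of these 2 libraries had a mean of 431 CPM of Cxcr4 and 169 CPM of Gngt2. Viewed from Cxcr4, the summed granule genes stood at 106 CPM in the 433 cells with a Cxcr4 transcript and 4042 CPM in the 255 without. The gate genes S100a8 and S100a9 stood at 21361 and 51659 CPM.

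**Figure D3:**
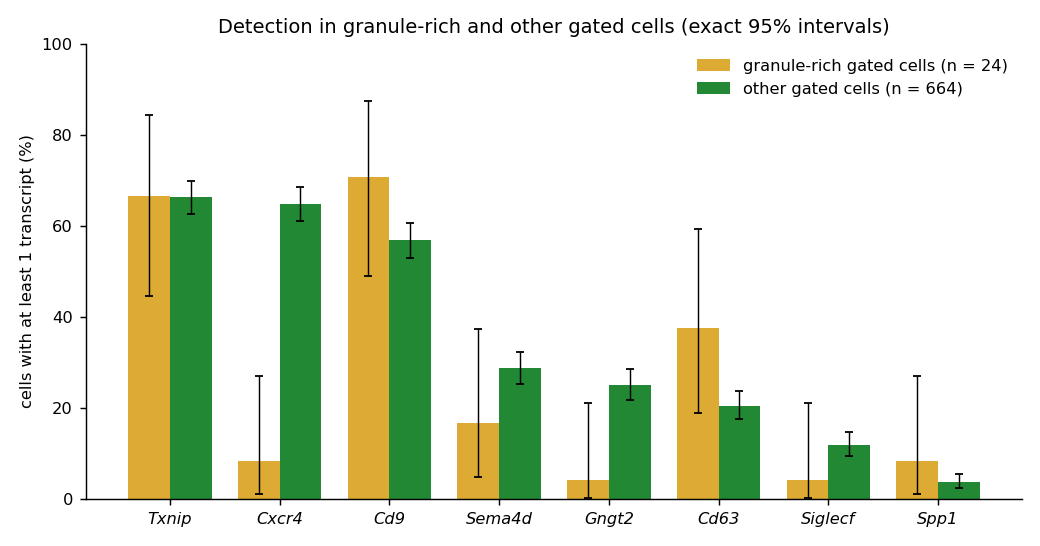
Percent of cells with at least 1 transcript of each gene among 24 granule-rich and 664 other gated cells, with exact 95% intervals. Both kinds of cell are pooled over libraries. Cells are not thinned; Cxcr4 is found in 8.33% against 64.9% and Txnip in 66.7% against 66.3%, and at 500 transcripts these are 4.17% against 26.7% and 16.7% against 23.5%.

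The gated cells were also set against other sorted cells of the same libraries. Cells with more than 2 C1q transcripts, of which there were 70, are macrophage-like by these genes and carried more RNA, with a median of 7909 transcripts. In the 7 libraries with at least 5 cells of both kinds, Cd9 averaged 539 ± 187 CPM in gated and 170 ± 121 CPM in C1q cells and was higher in gated cells of 7 of 7 libraries. Txnip averaged 697 ± 199 and 341 ± 127 CPM and was higher in 6 of 7. Cxcr4 averaged 790 ± 397 and 615 ± 358 CPM, higher in 7 of 7 by a smaller factor. Siglecf was at 0 in all 70 C1q cells, and Spp1 had 2 transcripts there. Cd63 averaged 172 ± 96.4 and 186 ± 306 CPM. Against the 625 other cells, which had fewer than 5 S100 transcripts, all 19 libraries could be used. Cxcr4 averaged 990 ± 470 CPM in gated and 940 ± 489 CPM in these cells, higher in gated cells of 10 of 19 libraries, and Spp1 37.9 ± 43.8 and 62.0 ± 112, higher in 5. Txnip averaged 861 ± 389 and 647 ± 419 CPM (higher in 15) and Cd9 645 ± 246 and 427 ± 236 (higher in 17).

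The genes were also read in near-empty barcodes. In 1583 barcodes with fewer than 100 transcripts, taken as background, Gngt2 stood at 184 CPM (13 transcripts) against 205 CPM in gated cells, and Cd63 at 240 CPM (17 transcripts) against 163 CPM. For these 2 genes the pooled level in gated cells was close to or under that of the background. Txnip stood at 381 against 937 CPM, Cxcr4 at 268 against 944 and Cd9 at 184 against 649. Sema4d stood at 84.7 against 246 CPM, Siglecf at 56.5 against 85.8 (4 transcripts) and Spp1 at 14.1 against 46.3 (1 transcript). These values pool the groups in unlike proportions, with 1020 of the background barcodes in control and 563 in aGVHD libraries. By group, background Txnip stood at 247 CPM in control and 610 CPM in aGVHD (11 and 16 transcripts), against 740 and 987 CPM in gated cells. Background Cxcr4 stood at 292 and 229 CPM, against 985 and 934 CPM.

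Siglecf-positive cells were checked for eosinophil genes. In the 80 gated cells with a Siglecf transcript, eosinophil markers had 24 transcripts in all. Ear1 was found in 4 cells with 14 transcripts, Adgre4 in 4 with 7, Il5ra in 2 and Ccr3 in 1, and Prg2 in 0. Their level was 117 CPM, against 89.0 CPM in gated cells without Siglecf. Eosinophil markers were higher beside Gngt2, at 229 CPM in cells with Gngt2 and 40.2 CPM in cells without. They were also higher beside Sema4d (151 against 60.1 CPM), Cxcr4 (124 against 30.5), Cd9 (121 against 40.2) and Txnip (97.9 against 77.9). Beside Cd63 (68.4 against 105) and Spp1 (63.1 against 94.6) they were lower. These levels pool cells over libraries. With status from thinned cells the order turned for Txnip (13.9 against 113 CPM), Sema4d (88.8 against 93.8), Siglecf (71.4 against 94.0) and Cd63 (350 against 80.9). It stayed for Gngt2 (592 against 55.6), Cxcr4 (164 against 74.6), Cd9 (156 against 81.3) and Spp1 (0 against 94.6). By library, eosinophil markers were higher in Gngt2-positive cells of 1 of 4 libraries. For Txnip this was 2 of 12, for Cxcr4 4 of 14 and for Cd9 5 of 12. The part of eosinophil markers in the Gngt2 and Siglecf levels was not tested. Granule genes stood at 83.1 CPM in cells with Siglecf and 1618 CPM in cells without, pooled over libraries and with status from cells not thinned. Granule-rich cells made up 1.25% of the cells with Siglecf and 3.78% of those without. In thinned cells the order was the reverse, with Siglecf in 4.17% of granule-rich (1 cell) and 2.41% of other gated cells. The granule gene contrast by Siglecf status was not tested.

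Cells that carried a gene were compared with cells that did not, after thinning to 500 transcripts. In the comparison as first designed both the status and the levels came from these 500, which left 50 to 65 genes to test. The limma fit called 0 genes for Txnip (of 65, 6 at an unadjusted p under 0.05), 0 for Cxcr4 (of 50, 9 unadjusted), 0 for Cd9 (of 58, 3 unadjusted) and 0 for Gngt2 (of 54, 2 unadjusted), a percent called of 0 each. Cells of the other 4 genes were too few. In aGVHD libraries alone, 4 of 77 genes passed for Cxcr4. Retnlg, a gene of mature blood neutrophils, was lower in Cxcr4-positive cells (log2 value -1.41 ± 0.31 (SE), limma adjusted p = 0.00347). The chemokine-binding receptor Ccrl2 was higher (0.54). The other 2 calls, S100a8 and S100a9, chose the cells and are not counted as results.

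A second form of the comparison, chosen after seeing the data, kept the status from the 500 drawn transcripts and read the levels from the rest of each cell, so that status and level shared no transcript. It asks first whether a detected gene is found again. Txnip stood at 1628 CPM in the remaining transcripts of 160 positive cells and 736 CPM in those of 510 negative cells, a ratio of 2.21, and was higher in positive cells of 16 of 18 libraries. Cxcr4 stood at 1697 and 648 CPM (ratio 2.62, 16 of 19 libraries), and Cd9 at 1107 and 525 CPM (ratio 2.11, 14 of 19). These ratios pool cells over libraries, so differences between libraries enter them. The fits, with the library as a block, took libraries where each status had at least 5 cells. By limma Txnip itself was higher by 0.88 ± 0.15 (log2, SE) over 12 libraries (adjusted p = 0.00250) and Cxcr4 by 1.02 ± 0.21 over 14 (adjusted p = 0.0284). For Cd9 the value was 0.74 ± 0.24 over 12 libraries (adjusted p = 0.146). The Txnip call held in all 16 settings run, and the Cxcr4 call in 9 of 18, with limma adjusted p up to 0.0944. These settings include the main fit and share most of their libraries.

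The rarer genes rested on fewer transcripts, and their levels are pooled over libraries in the same way. Sema4d stood at 566 CPM in 48 positive and 184 CPM in negative cells, Gngt2 at 463 and 162, and Cd63 at 389 and 110. Cd63 was higher in positive cells of 8 of 14 libraries. Siglecf stood at 393 and 66.1 CPM on 11 transcripts of positive cells, higher in 3 of 11 libraries. Spp1 stood at 1690 and 13.8 CPM, but on 24 transcripts in 13 positive cells. In 10 libraries where Spp1-positive cells could be compared, 4 had the higher level in them. Positive cells differed in makeup as well. Named genes took 68.8% of the drawn transcripts in Txnip-positive and 58.5% in Txnip-negative cells, and 67.9% and 58.4% for Cxcr4. With status drawn from 250 named transcripts instead, the ratios were 2.37 for Txnip, 2.88 for Cxcr4 and 1.78 for Cd9. For Siglecf the ratio fell from 5.94 to 2.46, on 4 transcripts, and for Spp1 from 123 to 70.7.

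**Figure D4:**
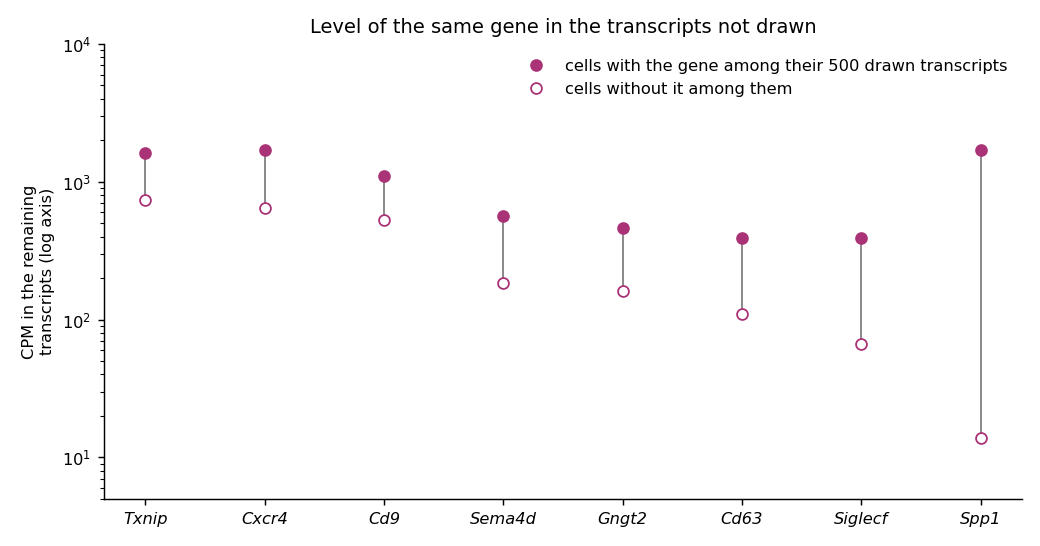
Level of each gene, in CPM on a log axis, in the transcripts left after 500 were drawn from each gated cell, for cells with the gene among the 500 (filled) and without it (open), pooled over libraries. Cxcr4 is at 1697 against 648 CPM, and Spp1 at 1690 against 13.8 CPM on few transcripts.

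Txnip-positive cells had less H2-Aa RNA, and 7 other genes were called with less stability. Of 334 genes tested on the remaining transcripts, limma called 9 with Txnip itself (percent called 2.69), or 8 without it. The class II chain H2-Aa fell from 1649 ± 1410 CPM in negative to 714 ± 547 CPM in positive cells (SD, n = 12 libraries). The log2 value was -1.25 ± 0.21 (SE, limma adjusted p = 0.00250), and H2-Aa was lower in 11 of 12 libraries. H2-Eb1 (-1.14), H2-Ab1 (-1.12) and Cd74, the invariant chain (-1.11), moved with it. The decoy receptor Il1r2 was higher in positive cells (4202 ± 839 against 2809 ± 462 CPM, log2 fold change 0.46 ± 0.10, adjusted p = 0.0227, 11 of 12 libraries). The chemokine receptor Ccr1 (0.52, 11 of 12 libraries) and the guanylate-binding protein Gbp7 (0.72, 10 of 12) were higher too. Lyz1, a lysozyme gene, was the remaining call and was lower in positive cells (-1.08).

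The 16 settings run include the main fit and 12 fits with 1 library left out, so they share most libraries. The fit of aGVHD libraries alone is the same as that without control replicate 2. Of the 8 calls H2-Aa was made in all 16 settings and Il1r2 in 11. H2-Eb1 was called in 6, Cd74 in 5, Ccr1 in 4, and H2-Ab1 and Gbp7 in 3 each. The count fell from 8 to 1 without aGVHD replicate 2, without aGVHD replicate 10, or without control replicate 2 (the only control library in it), to 2 without aGVHD replicate 11, and to 3 without aGVHD replicates 1, 3 or 12. It rose to 28 without aGVHD replicate 7. It was 2 without the granule-rich cells and 1, H2-Aa, with status from 250 named transcripts. Class II RNA was unevenly spread, with 59.8% of it in 34 of 688 gated cells. H2-Aa stood at 10323 CPM in C1q cells, 1130 CPM in gated cells and 1850 CPM in background barcodes. Markers of other cells moved with Txnip status: B or plasma cell markers stood at 1434 CPM in positive and 21091 CPM in negative cells and epithelial markers at 967 and 3976 CPM. Each of these 2 lists was higher in positive cells of only some libraries, 5 and 3 of 12. Their part in the result was not tested. Macrophage markers stood at 1332 and 1524 CPM.

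Cxcr4-positive cells had 1 call of 232 genes beside Cxcr4 itself (percent called 0.862). The class I gene H2-D1 stood at 4497 ± 1126 CPM in positive and 3004 ± 981 CPM in negative cells, higher in 14 of 14 libraries (log2 value 0.44 ± 0.10 (SE), adjusted p = 0.0386 by limma). It was called in 2 of 18 settings. Leaving out any library other than aGVHD replicate 11 ended it. Retnlg stood at 1074 ± 989 and 3096 ± 3603 CPM (log2 fold change -1.27 ± 0.39, adjusted p = 0.110), higher in positive cells of 5 of 14 libraries. With status from 250 named transcripts 21 genes were called, 18 of them lower in Cxcr4-positive cells. Retnlg (-1.32) and H2-Aa (-1.34) were among the lower genes, and Il1r2 (0.49), Csf1 (0.70) and Slfn1 (0.71) were the higher ones.

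Cd9-positive cells had lower mitochondrial RNA. All 8 calls among 287 genes (percent called 2.79) were mitochondrially encoded, and Cd9 itself was not called. The ribosomal RNA mt-Rnr2 stood at 33766 ± 12680 CPM in positive and 53610 ± 19008 CPM in negative cells (SD, n = 12 libraries, log2 fold change -0.76 ± 0.15, limma adjusted p = 0.0225), lower in 11 of 12 libraries. The respiratory chain genes mt-Co3 (-0.73), mt-Nd2 (-0.70) and mt-Co2 (-0.66) were lower, mt-Co2 in 12 of 12. In total, mitochondrial RNA was 7.14% of named transcripts in Cd9-positive and 11.7% in Cd9-negative cells. It was lower in positive cells of each of the 8 genes, for Cxcr4 7.87% against 11.8%, but with status from 250 named transcripts it was higher for Gngt2 (12.01% against 10.8%) and Sema4d (14.6% against 10.6%). Mitochondrial share is a usual sign of RNA quality, and its part in these comparisons was not tested. The count was 0 without aGVHD replicates 3, 6 or 8 and in aGVHD libraries alone, 3 without control replicate 3, 4 without aGVHD replicate 4, 5 without aGVHD replicate 11 and 4 without the granule-rich cells. For Gngt2, 0 of 248 genes were called (percent called 0), with 34 at an unadjusted p under 0.05.

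Whether cells with 2 of the 8 genes were more frequent than the separate shares give depended on how the cells were thinned. At 500 transcripts 40.7% of gated cells had none of the 8 genes, 35.8% had 1, 16.9% had 2, and no cell had more than 5. Of 28 pairs, 12 had at least 5 cells expected from the shares within libraries, and 10 of these were observed more often, with a median ratio of 1.20. Txnip and Cxcr4 were found together in 55 cells against 46.6 expected, above expectation in 13 of 19 libraries, and at 1000 transcripts in 139 against 109. With 250 named transcripts per cell this pair stood at 31 against 31.7, above in 9 libraries and below in 10. Txnip and Gngt2 were found together in 21 against 11.1, above in 10 libraries and below in 4. The ratio of this pair fell from 1.89 to 1.17 at 1000 transcripts (37 against 31.7) and to 1.11 with 250 named transcripts (9 against 8.14). Txnip and Cd9 stood at 35 against 34.6, and with 250 named transcripts at 30 against 25.1. Cxcr4 and Gngt2 stood at 14 against 13.1, and with 250 named transcripts at 15 against 9.29. Cxcr4 and Sema4d stood at 13 against 14.3. With 250 named transcripts per cell 7 of 11 pairs were above expectation, with a median ratio of 1.09. The named depth of each cell is equal in that draw. In the draws of 500 and 1000 transcripts it still varied, and the genes of a pair shared it.

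**Figure D5:**
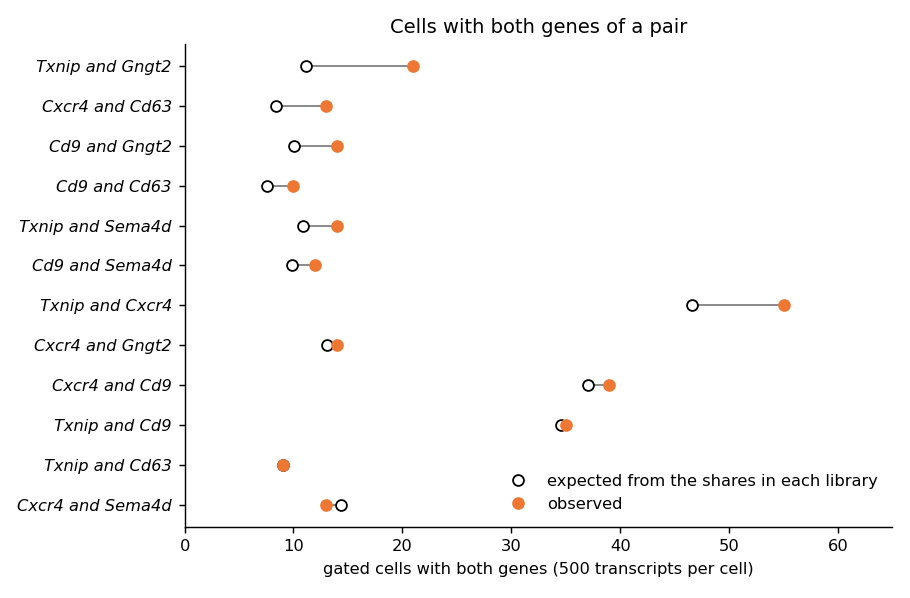
Number of gated cells, thinned to 500 transcripts, with both genes of a pair (filled) and the number expected from the shares in each library (open), for the 12 pairs with at least 5 expected. In this draw Txnip and Gngt2 stand at 21 against 11.1, and Txnip and Cd9 at 35 against 34.6; with 250 named transcripts these are 9 against 8.14 and 30 against 25.1.

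Levels were correlated across the 19 libraries for 7 of the 8 genes, without Spp1. The highest Spearman correlation among them was that of Cxcr4 and Cd9 (0.77), followed by Txnip and Cxcr4 (0.59), while Txnip and Gngt2 stood at 0.04. Over 1960 genes with at least 100 transcripts, the nearest to Cxcr4 were Slc7a11, the cystine transporter (0.88), Cd44 (0.82) and Tgfbr1 (0.80). The nearest to Txnip were Clec5a (0.81), Pitpnm1 (0.79) and Lpcat2 (0.77). Those nearest to Cd9 were Chd7, Ptafr and Usp25 (0.79 each). Gngt2 lay nearest to Csf1 (0.88), Ncf1 (0.74) and Tap2 (0.73), and Siglecf to Klf10 (0.82), Ctdsp2 (0.80) and Lamtor1 (0.80). Sema4d lay nearest to Rnf19b (0.81), Slc3a2 (0.79) and Irf5 (0.77), and Cd63 to Pafah1b1 (0.79), Nr4a2 (0.73) and Tgif1 (0.68). These are descriptions over 19 points that share depth and cell makeup. The nearest genes were picked as the highest of 1960 on these same libraries, which by itself favours high values.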

How the data were processed

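The 22 deposited tables hold genes by barcodes. The values, in the unit other, are the authors' estimated transcript counts. Each of the 1419098 values above 0 equals a whole number of identifiers, of 4096, corrected for saturation (tolerance 1e-06, 0 failing), and was rounded. BWA 0.6.2-r126 and bcl2fastq 2.17.1.14 stand in the submitters' processing notes; no build is named there. Unnamed gene models (44.7% of gated transcripts) count toward the minimum of 500 but not toward CPM. No doublet caller was run.

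The 8 genes, the lists and the tests were chosen with earlier results of these data known. Transcripts summed per library were tested with limma 3.58.1 (R 4.3.3), using voom weights and trimmed-mean scaling. Genes needed 10 transcripts in a library of median size and 15 over all libraries. P-values were adjusted by Benjamini and Hochberg over all genes, with a threshold of 0.05. Comparisons within libraries took the library as a block. Shares used exact permutation over 19305 regroupings (Python 3.11.15, scipy 1.17.1), adjusted over 8 genes. Named were all 8 genes, list genes that passed or else the 2 most abundant, up to 8 higher and 4 lower genes per cell comparison, and the 3 nearest genes; other calls are named where they were few, after their values were seen. On simulated sums the comparison by Txnip status called 80% of genes changed by 1 on the log2 scale (337 genes tested). There too 200 genes were changed at a dispersion of 0.2, and 3 unchanged genes were called.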

Additional observations from a re-analysis of the deposited data

Results flagged for a closer look

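Among the 16 groups of 7 control libraries tested, 2 held a library far from the others, where chance gives about 1 in 20. The thinned share of Txnip-positive cells was 53.8% in control replicate 2, against 18.2% in the next library, and without it the difference between groups moved from 6.13 to 12.1 points. The thinned share of Spp1-positive cells was 9.09% in control replicate 1, against 3.85% in the next, which is 1 of its 11 gated cells.

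Transcripts of the genes were also present in data outside the comparisons, the 1583 barcodes with fewer than 100 transcripts. Txnip stood there at 381 CPM, Cxcr4 at 268, Cd9 at 184, Cd63 at 240, Siglecf at 56.5, Gngt2 at 184 and Sema4d at 84.7. In gated cells these were 937, 944, 649, 163, 85.8, 205 and 246 CPM. Both sets of values pool the control and aGVHD groups, in unlike proportions.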

How the results depend on the processing

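Between groups, the 0 genes called became 144 over all cells with at least 500 transcripts, 31 with no low-count filter (where the median of all genes shifts to -0.34) and 0 to 1 with a library left out. Same-numbered libraries of the dated set did not consistently deviate together (correlations -0.45 to 0.24, 2 of 5 pairs over 0.1). Of 10 libraries, 4 correlate best with their own number. With only 5 pairs the check cannot decide whether the numbers pair libraries, and the main fit used no pairing. A replicate block in the dated set gave 3 calls, and the same libraries without it 2.

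No fold change or share of the 8 genes passed the test in any setting run (smallest adjusted p 0.0592), so the reversals concern values within their intervals. In log2, the G1 set alone gave Txnip -0.23, Cd9 -0.28 and Cd63 -0.95, and the dated set alone Cxcr4 0.037. No low-count filter gave Cxcr4 0.27, Gngt2 0.47 and Sema4d 0.16. Cd9 was -0.034 at a minimum of 250 transcripts, -0.048 with no C1q transcript allowed and -0.028 with a quality filter. Cd63 was -0.066 without granule-rich cells and -0.11 with an intensity trend, where Gngt2 was 0.030. Gngt2 was 0.20 over all kept cells. With a library left out Txnip ran from 0.12 (without control replicate 6) to 0.61, Cxcr4 from -0.38 to -0.06, Sema4d from -0.56 to -0.26, Cd63 from -0.63 to 0.21, Cd9 from -0.12 to 0.15 and Gngt2 from -0.33 to 0.11.

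Share differences (points, aGVHD minus control) reversed as follows. With 250 named transcripts, chosen after seeing the data, Txnip was -1.81, Cd63 -2.72 and Gngt2 -6.28. With at least 2 transcripts required, Cxcr4 was 2.55, Cd9 0.0608, Siglecf 0.208, Gngt2 -1.65 and Sema4d 0.788. The G1 set alone gave Spp1 1.62 and Cd63 -1.37, and the dated set Gngt2 -0.588 and Sema4d 0.404. A gate of 10 S100 transcripts gave Spp1 0.864 and Sema4d 0.362. Thinning to 1000 gave Cd9 2.01 and Siglecf 1.30, and no thinning Cd63 -2.51 and Gngt2 -6.21. The mean over all thinnings, also added later, gave Siglecf 0.0244 and Gngt2 -1.75. With a library left out Txnip ran from 3.17 to 12.1, Gngt2 from -0.900 to 2.15, Siglecf from -1.17 to 0.280 and Spp1 from -0.441 to 1.07.

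Between cells with and without a gene, the 0 calls for Cxcr4 became 4 in aGVHD libraries alone, 1 on the remaining transcripts and 0 to 2 with a library left out. Those for Cd9 became 6 at 1000 transcripts, 1 without granule-rich cells, 1 in aGVHD libraries alone, 8 on the remaining transcripts and 0 to 2 with a library left out, and those for Txnip 8 on the remaining transcripts. On these, all added later, Txnip's 8 calls became 2 without granule-rich cells, 1 in aGVHD libraries alone, 1 with 250 named transcripts and 1 to 28 with a library left out. Cxcr4's single call became 0, 3, 21 and 0 to 3, and Cd9's 8 became 4, 0, 7 and 0 to 11. The cause was not tested. At this depth Siglecf and Spp1 could not be tested for a fold change.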
